A study of Drosophila melanogaster with 3 samples.

Results

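The genes described here are 10 chaperone genes of Drosophila melanogaster from the Hsp70, Hsc70 and Hsp90 families, taken by name from the gene annotation, out of 13945 protein-coding genes. The 4 constitutive members are Hsc70-4, Hsc70-3, Hsc70-5 and Hsp83, and the 6 heat-inducible members are Hsp68, Hsp70Aa, Hsp70Ab, Hsp70Ba, Hsp70Bb and Hsp70Bc. Hsp83 makes RNA without heat and more with heat, and was placed with the constitutive genes. All values come from chromatin immunoprecipitation and sequencing (ChIP-seq) with an anti-GFP antibody on whole animals at the wandering third-instar stage, the end of larval life, with both sexes pooled and the age unknown. The larvae carried a stably expressed transgene in which GFP is fused to the N-terminus of Rel. The single group has 3 biological replicates, there is no untagged or wild-type group among them, and the labels name no heat or immune treatment. The study therefore gives where Rel-GFP signal lay and not a response to a stimulus.

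Rel, short for Relish, is a fly NF-κB protein that the IMD branch of innate immunity activates to switch on its target genes. Hsp70 proteins bind unfolded stretches of other proteins and release them in cycles driven by ATP, while Hsp90 proteins act later in folding and hold many signalling proteins in a usable state. In flies the heat-inducible genes are driven by heat shock factor, which binds the heat shock element, and RNA polymerase pauses just after their start before heat. The Hsc70 genes are called cognates because they serve the same folding tasks in unstressed cells.

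All 4 constitutive members and 1 of the 6 inducible members had a summit of the optimal list, the authors' list of peaks reproducible between replicates, within 5000 bp. The inducible member was Hsp68, and none of the 5 Hsp70 copies had one. Among all protein-coding genes 63.4% had an optimal summit within 5000 bp, so at that distance having a summit was the usual state of a gene and lacking one was not. In counts of summits the constitutive genes held 14 and the inducible genes 5, which makes 19 in all among 9419 optimal summits. A summit lay within 1000 bp of a transcription start site (TSS) at 4 of 4 constitutive and 1 of 6 inducible members, against 37.9% of all protein-coding genes. At that distance lacking a summit was the usual state. With a distance of 10000 bp 4 of 4 constitutive and 4 of 6 inducible members counted as having an optimal summit, against 74.1% of all protein-coding genes. With all 30000 pooled peaks within 5000 bp the counts were the same, against 72.8%. The 5 Hsp70 copies lie in 2 clusters of closely similar genes and are not 5 separate observations.

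Hsp68 had the most optimal summits, 5, followed by Hsp83 and Hsc70-3 with 4 each, then Hsc70-4 and Hsc70-5 with 3 each. Of the 10 members 5 therefore had at least 3 and the 5 Hsp70 copies had 0, while 28.6% of all protein-coding genes had at least 3. The median over all protein-coding genes was 1. The map of summits by distance from the start shows that many of these summits lie beyond the chaperone gene itself.

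**Figure D1:**
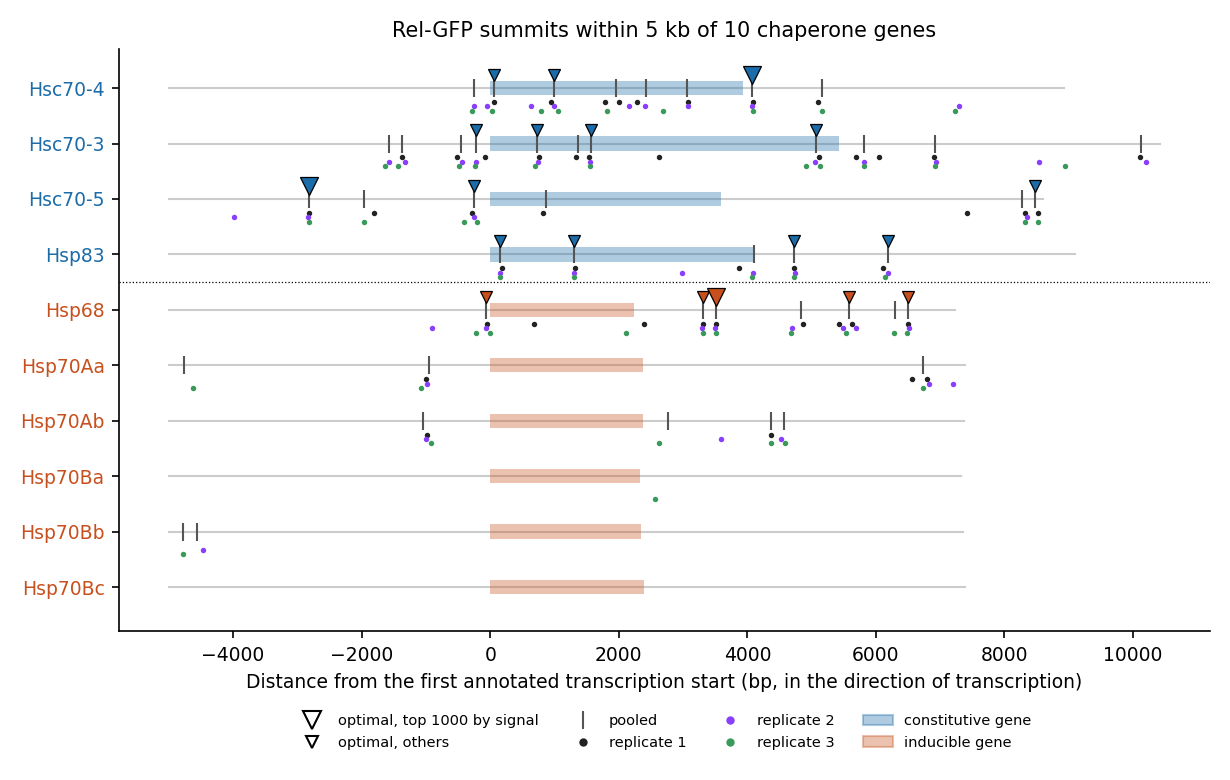
Summits within 5 kb of each gene, plotted by distance in bp from the first annotated start in the direction of transcription, with constitutive genes in the upper rows and inducible genes in the lower rows. Triangles are optimal summits, ticks pooled summits and dots the summits of each replicate list; 14 triangles stand at the constitutive genes, 5 at Hsp68 and 0 at the 5 Hsp70 copies.

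Hsp83, the cytosolic Hsp90, had the start summit of highest signal among the members, at chr3L:3193125 (dm6) in a peak from 3192887 to 3193379, rank 1159 of 9419 by signal. It lies 91 bp before the second annotated TSS of the gene, 3193216, and inside a noncoding exon of the longer transcript. Heights were compared as relative signal, which divides the height of the matching peak in a replicate by the median height of all optimal summits matched in that replicate. Relative signal at Hsp83 was 4.37 in replicate 1, 1.05 in replicate 2 and 3.58 in replicate 3, with a mean of 3.00 ± 1.74 (SD, n = 3). Replicate 2 stood at the level of an ordinary optimal summit there, while the other two replicates stood well above it. The ratio of replicate 2 to the mean of replicates 1 and 3 was 0.263, and 0.952% of the 8511 optimal summits matched in all 3 replicates had a ratio as low. The intron summit of Hsp83 at chr3L:3194277, rank 1800, had relative signals of 2.76, 1.33 and 2.08 in replicates 1 to 3, again lowest in replicate 2.

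The start summit of Hsp83 lies beside a stretch that resembles a heat shock element, which is built of GAA and TTC blocks in turn with 2 free bases between blocks. No member summit had a full run of 3 blocks within 100 bp on either side, and 0.180% of all optimal summits did. Allowing 1 of the 9 fixed bases to differ, a form added after the Hsp83 sequence had been seen, 4 of 19 member summits and 5.15% of all optimal summits had a match. Those 4 were the Hsp83 start summit, the Hsp68 start summit of rank 3787, a summit of rank 6776 and the Hsc70-3 summit of rank 4247. The summit of rank 6776 was counted for Hsp68, but it lies 5578 bp from the Hsp68 TSS and 51 bp from a TSS of Pisd. At Hsp83 the 4 overlapping matches run from 3193138 to 3193165, and they end 51 bp before the second TSS. The stretch is shown because full heat shock elements mark the inducible promoters described further on. It is read from the RefSeq release 6 genome at chr3L:3193137-3193166, plus strand, with the matches in capitals.
Hsp83: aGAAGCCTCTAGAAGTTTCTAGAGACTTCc

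The remaining 2 summits near Hsp83 were nearer to other starts. The summit at chr3L:3197692, rank 4238, lay 61 bp from the TSS of CG14966 and had a mean relative signal of 1.01 ± 0.227 (SD, n = 3). The summit at chr3L:3199164, rank 2544, lay 74 bp from the TSS of gry and 117 bp from that of CG32276, with a mean of 1.61 ± 0.115 (SD, n = 3). CG14965 has a TSS 634 bp from the Hsp83 start summit.

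Hsc70-4, the main cytosolic Hsc70, had weak summits at its own starts and a strong one past its end. The summit in its first noncoding exon, at chr3R:15242739, was near the bottom of the list, rank 9091, with relative signals of 1.20, 0.404 and 0.521 in replicates 1 to 3. The summit in its intron, at chr3R:15243681 and 483 bp from a TSS, ranked 6286 with 0.933, 0.581 and 0.765. Both were below the median optimal summit on average, at 0.709 ± 0.431 and 0.760 ± 0.176 (SD, n = 3 each). The replicate 2 summit matched to the exon summit lay 98 bp away, just within the 100 bp that counted as a match, and the start of tefu lies 503 bp from it.

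The strong summit, at chr3R:15246766, ranked 206 and had relative signals of 10.5, 7.69 and 10.4, a mean of 9.53 ± 1.59 (SD, n = 3). All 3 replicates placed it far above both start summits. It lies between genes, 152 bp past the 3′ end of Hsc70-4, and the nearest protein-coding TSS is that of Amt, 2371 bp away. The 151 bases centred on it, chr3R:15246691-15246841 on the plus strand of the RefSeq release 6 genome, overlap no annotated gene. They are shown because this is the highest of the member summits on its arm. The capitals mark the single match to GAGAG, the short word bound by GAGA factor, on either strand.
Hsc70-4 downstream: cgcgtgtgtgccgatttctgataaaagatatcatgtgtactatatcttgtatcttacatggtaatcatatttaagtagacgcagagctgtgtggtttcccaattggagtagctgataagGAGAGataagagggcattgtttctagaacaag

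Hsc70-3 encodes BiP, the Hsp70 of the endoplasmic reticulum, and its 4 summits lie in the gene and just before it. The highest, at chrX:11805555, rank 2152, lies in an intron 191 bp from an internal TSS. Its relative signals were 1.83, 1.90 and 1.61 in replicates 1 to 3, with a mean of 1.78 ± 0.155 (SD, n = 3), so the replicates stood close together. A second intron summit, at chrX:11806390, lies 37 bp from another TSS and had 1.36, 0.857 and 1.14. The exon summit near the 3′ end, at chrX:11802049, was lower, rank 8854, with 0.328, 0.834 and 0.444. The summit 225 bp before the first TSS, at chrX:11807342, had no match in replicate 1, and relative signals of 0.810 and 0.777 in replicates 2 and 3.

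The highest Hsc70-3 summit was 1 of the 3 member summits with a match to a loosened κB motif. Rel and its relatives bind κB sites, which open with GGG. The strict consensus matched 0 of 19 member summits within 100 bp, against 7.80% of optimal summits. A loosened form, in which the closing pair of C bases may each be T, matched 3 of 19, against 20.6% of optimal summits. At the Hsc70-3 summit 3 overlapping matches have their nearest centre 4 bp from the summit. The 101 bases centred on the summit are intronic in every annotated transcript, and are given for the strand of the gene, minus, from chrX:11805505-11805605 of the RefSeq release 6 genome with the matches in capitals.
Hsc70-3 intron: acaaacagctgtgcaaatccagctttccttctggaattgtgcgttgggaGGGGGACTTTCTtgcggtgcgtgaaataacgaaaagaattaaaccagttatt

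Hsp68, an inducible Hsp70 with a gene of its own apart from the Hsp70 clusters, was the single inducible member with optimal summits. Its start summit, at chr3R:24057376, lies 66 bp before the TSS and ranked 3787. Relative signals were 1.15, 0.978 and 1.25 in replicates 1 to 3, with a mean of 1.13 ± 0.137 (SD, n = 3), close to the median optimal summit. The start of SMC1 lies 911 bp away. The summit has a loosened κB match with its centre 8 bp away, and the heat shock elements of the gene lie farther out, 160 to 182 bp before the TSS. The 200 bases before the TSS are shown because both lie in them. They come from chr3R:24057311-24057510, minus strand, of the RefSeq release 6 genome. The first run of capitals covers 3 overlapping heat shock element matches, and the second is the loosened κB match GGGAAATCTC.
Hsp68 upstream: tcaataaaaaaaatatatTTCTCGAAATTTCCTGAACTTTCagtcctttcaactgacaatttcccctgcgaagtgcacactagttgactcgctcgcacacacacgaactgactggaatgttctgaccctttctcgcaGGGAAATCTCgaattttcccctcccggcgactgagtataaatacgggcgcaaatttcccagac

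The other 4 summits near Hsp68 lie past its 3′ end. The highest of them, at chr3R:24053800, rank 497, had relative signals of 5.86, 5.43 and 5.49, with a mean of 5.59 ± 0.234 (SD, n = 3). It lies 3510 bp from the Hsp68 TSS and 591 bp from a shared start of CG6000 and lncRNA:CR44097. A lower summit in the same peak, at chr3R:24054005, averaged 1.16 ± 0.160 (SD, n = 3) and lay 386 bp from that start. The remaining ones, of rank 4359 and 6776, lie 21 and 51 bp from starts of Pisd, the first of them also 22 bp from that of Atg6. The signal near Hsp68 was thus highest away from the chaperone's own start.

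The 5 Hsp70 copies had no summit inside any of the 5 genes in any of the 5 lists. These genes are the classic heat-induced Hsp70 genes, a head-to-head pair of Hsp70Aa and Hsp70Ab and, elsewhere on the same arm, Hsp70Ba, Hsp70Bb and Hsp70Bc. In the pooled list 7 summits lay within 5000 bp of 3 of the 5, Hsp70Aa, Hsp70Ab and Hsp70Bb, all below the lowest optimal peak in signal. The highest of these, at chr3R:11962906, had rank 10074 and signal 177, and lay 101 bp from the TSS of CG3281 and 4371 bp from that of Hsp70Ab.

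Between Hsp70Aa and Hsp70Ab all 3 replicate lists held a summit, with signals of 31.7, 16.2 and 15.6 in replicates 1 to 3. The pooled summit there, at chr3R:11957489, ranked 18994 with signal 67.4, and lay 945 bp from the Hsp70Aa TSS and 1046 bp from the Hsp70Ab TSS. It fell in an annotated transposable element insertion. A pooled summit of signal 38.1, at chr3R:12501239, also fell in such an insertion and had a counterpart in replicate 2 alone. It lay 4554 bp from Hsp70Bb and 1271 bp from the TSS of Hsp70Bbb, a further copy that is not a member. The other pooled summit there, at chr3R:12501011 with signal 36.6, fell in no annotated insertion and had a counterpart in replicate 3 at chr3R:12501010. Hsp70Ba had 1 summit, in replicate 3 alone, in a coding exon of CG5608, and Hsp70Bc had none in any list.

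Counting genes with a summit within 5000 bp in the replicate lists, the constitutive members reached 4 of 4 in each. The inducible members reached 3, 4 and 5 of 6 in replicates 1 to 3. The same lists touched 75%, 75.9% and 75.1% of all protein-coding genes.

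The sequence of the copies is nearly the same, which bears on what short reads can show there. A word of 50 bases was called unique where it occurs once in the assembly, on either strand. Of the words in the gene, 100% were unique at Hsc70-4, Hsc70-3, Hsc70-5 and Hsp68, and 96.1% at Hsp83. At the Hsp70 copies the share was 1.11% for Hsp70Aa, 0.817% for Hsp70Ab, 12.6% for Hsp70Ba, 4.92% for Hsp70Bb and 13.4% for Hsp70Bc. The members thus fall into 5 genes that are unique nearly throughout and 5 that are mostly repeated. Within 500 bp of the first TSS the share was 25.1% at Hsp70Aa, 22.9% at Hsp70Ab, 42.5% at Hsp70Ba, 6.62% at Hsp70Bb and 0% at Hsp70Bc. Over the gene and 5000 bp on either side, where summits were counted, it was 57.8% at Hsp70Aa and at Hsp70Ab, 50.2% at Hsp70Ba, 26.8% at Hsp70Bb, and between these last values at Hsp70Bc. With words of 100 bases the start of Hsp70Ba reached 67.7%, and the other 4 copies stayed at 32.0% or below.

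**Figure D2:**
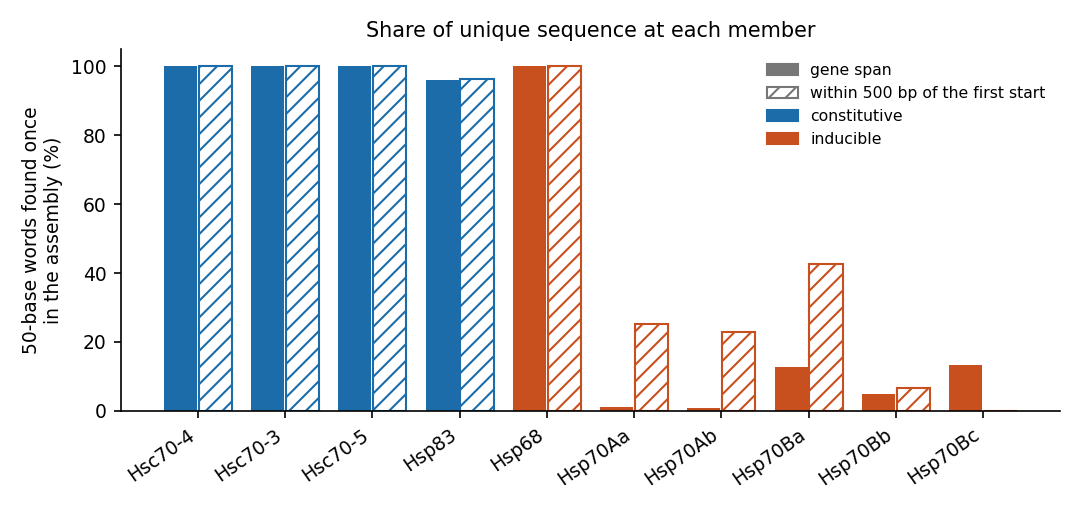
Percentage of 50-base words that occur once in the assembly, for the gene (filled bars) and within 500 bp of its first start (hatched bars), with constitutive genes to the left and inducible genes to the right. The 4 constitutive genes and Hsp68 stand at 96.1% or above, and the 5 Hsp70 copies at 42.5% or below.

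All 5 copies were under 50% at the start, as were 307 (2.2%) of the 13945 protein-coding genes. Of those 307 genes 3, or 0.977%, had an optimal summit within 1000 bp of a TSS, against 38.8% of the other 13638. Of the optimal summits 4, or 0.0425%, lay in repeated sequence, while 11.6% of positions taken every 50 bp along the chromosome arms did. Few summits were placed in repeated sequence in any list, and how reads that fit several places were treated is not given in the sources used here. In the repeated stretches of the Hsp70 copies, a lack of summits and a lack of reads that could be placed cannot be told apart.

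The genes of the copies were 91.3% to 99.7% identical to each other, with 91.3% to 92.6% between the clusters. Over the 250 bp upstream of the start the identity was 73.4% to 100%, with 73.4% to 84.7% between the clusters. Hsp68 was 72.0% to 73.0% identical to the copies over the gene. The 100 bases around the heat shock element nearest to each start are shown to let the copies be compared base by base, from the RefSeq release 6 genome with the element in capitals. They run from chr3R:11956551-11956650 (minus strand), chr3R:11958428-11958527 (plus), chr3R:12467802-12467901 (minus), chr3R:12505684-12505783 (plus) and chr3R:12508967-12509066 (plus), and all end before the annotated TSS.
Hsp70Aa: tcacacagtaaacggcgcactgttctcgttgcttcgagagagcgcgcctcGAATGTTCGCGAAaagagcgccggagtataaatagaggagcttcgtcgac
Hsp70Ab: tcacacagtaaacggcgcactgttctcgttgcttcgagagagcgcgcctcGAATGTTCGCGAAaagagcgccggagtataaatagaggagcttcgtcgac
Hsp70Ba: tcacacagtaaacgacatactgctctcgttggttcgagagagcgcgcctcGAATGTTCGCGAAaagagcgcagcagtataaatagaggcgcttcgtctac
Hsp70Bb: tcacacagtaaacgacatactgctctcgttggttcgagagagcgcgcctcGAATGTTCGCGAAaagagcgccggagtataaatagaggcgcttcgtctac
Hsp70Bc: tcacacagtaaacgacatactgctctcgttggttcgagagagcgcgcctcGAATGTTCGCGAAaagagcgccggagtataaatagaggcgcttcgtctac

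Over these 100 bases Hsp70Aa and Hsp70Ab did not differ at any base, and neither did Hsp70Bb and Hsp70Bc. Hsp70Ba differed from Hsp70Bb at 2 bases. Hsp70Aa differed from Hsp70Bb at 7 and from Hsp70Ba at 9. The element itself reads the same in all 5. A read that covers only this stretch could therefore not be given to 1 copy within either pair of identical sequences. Hsp70Bbb, which is not a member and was left out of this comparison, was 100% identical to Hsp70Bb and to Hsp70Bc over the 250 bp upstream.

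Heat shock elements were counted at the promoters of both classes, apart from any peak. The promoter was taken as 250 bases before to 50 after the first TSS, on both strands. No constitutive member and 6 of 6 inducible members had a full match there, against 0.430% of all promoters, 60 of 13945. At least 2 matches, overlapping ones included, were found in 3 promoters of all genes, and these 3 were Hsp68, Hsp70Aa and Hsp70Ab. Hsp70Ba, Hsp70Bb and Hsp70Bc each have a second full match as well, at 264 to 276 bp before the TSS in Hsp70Ba and 248 to 260 bp in the others, which the window of 250 bases cuts off. With any annotated TSS in place of the first, an alternative added after the data had been seen, Hsc70-4 also had a match. A separate full match in Hsc70-4 has its centre 98 bp from the intron summit of rank 6286, so that it runs past the 100 bp searched around summits. With any TSS and 1 mismatch allowed, also added later, 3 of 4 constitutive members (Hsc70-4, Hsc70-3 and Hsp83) and 6 of 6 inducible members had a match, against 10.6% of all promoters. GAGAG matched 6 to 8 times in the promoter of each Hsp70 copy and 0 times in that of Hsp68, while 29.7% of all promoters had a match. The word TATAAA occurred in the promoter of 3 of 4 constitutive members, all but Hsc70-3, and of 6 of 6 inducible members, against 45.8% of all promoters.

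At the summits the shorter words matched some members and not others. GAGAG matched 4 of 19 member summits and 29.0% of all optimal summits within 100 bp, and TATAAA 6 of 19 and 22.7%. The DNA replication-related element, a start motif of many housekeeping genes, matched 0 of 19 and 3.35%. In the promoter windows it matched that of Hsp83 alone among the members, against 9.36% of all promoters.

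Hsc70-5, the mitochondrial Hsp70, shares its start region with a divergent gene and has the strongest peak of any member nearby. The start summit, at chr2R:14256448, rank 1358, lies 256 bp before the Hsc70-5 TSS and 45 bp from the TSS of CG8531 on the other strand. Its relative signals were 2.03, 3.67 and 2.43 in replicates 1 to 3, with a mean of 2.71 ± 0.857 (SD, n = 3). Here replicate 2 was the highest of the 3, the reverse of Hsp83. The strongest peak, at chr2R:14259011, ranked 56 with relative signals of 14.5, 22.4 and 16.9 and a mean of 17.9 ± 4.05 (SD, n = 3). That summit lies 2819 bp before the Hsc70-5 TSS but 19 bp from the TSS of beta4GalNAcTA, and it is the third member summit with a loosened κB match, its centre 14 bp away. The last summit counted for Hsc70-5, at chr2R:14247710, lies in an intron of Mdr50 and had no match in replicate 2, against relative signals of 0.766 in replicate 1 and 0.534 in replicate 3.

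Set side by side, the start summits ranked Hsp83, Hsc70-5, Hsc70-3, Hsp68 and Hsc70-4 by mean relative signal. Neighbours in this order were compared by a two-sided exact sign-flip permutation over the 3 replicates, whose smallest possible p is 0.25, with Benjamini-Hochberg adjustment over the 4 pairs. The order was taken from the same values that were tested, so the direction of each mean difference was fixed and the p-values are no independent support for it. Hsp83 exceeded Hsc70-5 by 0.29 ± 2.60 (SD of the difference, n = 3) and in 2 of 3 replicates, with exact p = 1, so these did not differ beyond their spread. Hsc70-5 was the higher of the pair without replicate 1 (3.05 against 2.32 for Hsp83) and without replicate 3 (2.85 against 2.71). The next 3 pairs each kept their order in 3 of 3 replicates with exact p = 0.25 and adjusted p = 0.333, and the design allows no smaller p. Hsc70-5 exceeded Hsc70-3 by 0.93 ± 0.79, Hsc70-3 exceeded Hsp68 by 0.65 ± 0.28, and Hsp68 exceeded Hsc70-4 by 0.37 ± 0.13 (SD of the difference, n = 3 each). The constitutive genes thus stood on both sides of the inducible Hsp68, 3 above it and Hsc70-4 below.

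**Figure D3:**
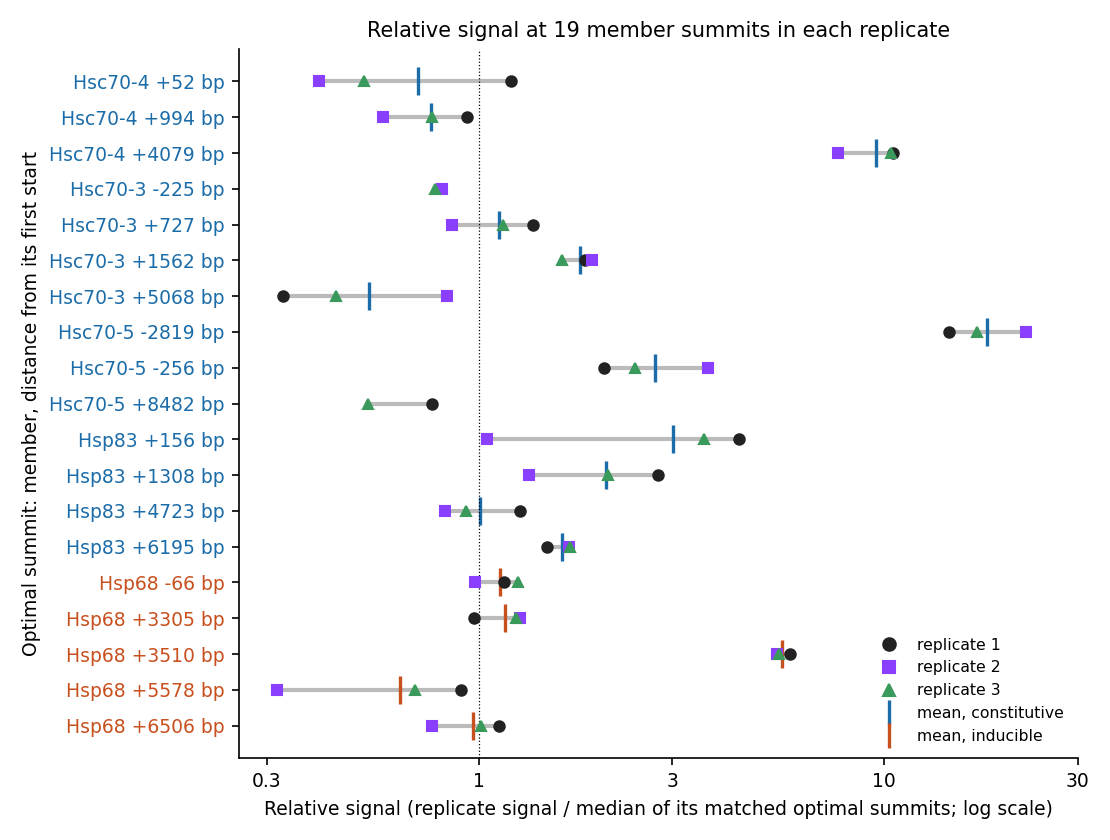
Relative signal in each replicate (log scale) at the 19 optimal summits of the members, labelled by gene and distance from its first start, constitutive genes above inducible ones; grey bars span the replicates and coloured ticks mark the mean where all 3 have a match. The 3 summits farthest right, 17.9 at Hsc70-5, 9.53 at Hsc70-4 and 5.59 at Hsp68 on average, are not at the starts of these genes, and replicate 2 stands apart at the Hsp83 start.

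Agreement between replicates was counted over the member summits and over the whole list. A summit within 100 bp was found in all 3 replicate lists for 17 of 19 member summits, and for 90.4% of all optimal summits. Restricted to the top 9419 peaks of each replicate, the count was 14 of 19, against 64.3%. With a match distance of 50 bp and all peaks, it was 10 of 19, against 68.4%. Across the 17 matched member summits Spearman's rho of signal was 0.82 between replicates 1 and 2, 0.91 between 1 and 3 and 0.91 between 2 and 3, against 0.71, 0.84 and 0.78 for the same pairs across all 8511. These are descriptions across summits that share libraries. The optimal list was itself drawn from these replicates, so the agreement at its summits is no independent test.

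Replicate 2 was the lowest of the 3 at 11 of the 17 matched member summits, while it was lowest at 36.6% of matched optimal summits. The 11 included 3 of 4 summits at Hsp83, 3 of 3 at Hsc70-4 and 4 of 5 at Hsp68. At the Hsc70-4 exon summit the replicate 2 match, 98 bp away, had signal 53.9, and a higher summit of signal 157 lay beyond 100 bp. That higher summit, at chr3R:15242442, was 206 bp from a TSS of tefu. It lay beside a separate pooled summit, at chr3R:15242439, that is not in the optimal list. At the Hsp68 summit of rank 6776 the replicate 2 match, 97 bp away, had signal 42.3, and one of signal 88.0 lay just beyond 100 bp. Of the 2 matched Hsc70-5 summits, none was lowest in replicate 2. Summits near 1 gene share a library and a locus, and what sets replicate 2 apart was not tested.

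Genes whose strongest start summit had the most similar relative signals were found by Euclidean distance of log2 relative signal over the 3 replicates, among 4794 genes, so that their order over the replicates follows from the choice. For Hsp83 these were Trp1 (3.98, 0.910 and 3.15 in replicates 1 to 3) and papi (3.71, 1.23 and 3.71). Hsc70-5 was nearest to CASK (1.94, 3.79 and 2.32) and FER (1.89, 3.57 and 2.41). For Hsc70-3 the nearest were RabX1 and mi, which share 1 summit, for Hsp68 scf and CG7600, and for Hsc70-4 smp-30 and CG31141.

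Of 46 other chaperone genes, 30 had an optimal summit within 1000 bp of a TSS, against 37.9% of all protein-coding genes. Within 5000 bp of the gene 36 of the 46 had one, against 63.4% of all protein-coding genes. Hsf, the heat shock factor itself, had one of rank 1700, which lay 799 bp from its TSS. The mean relative signal of that summit was 2.15 ± 0.556 (SD, n = 3), in the range of the constitutive members. Among relatives of the members, 2 of 5 other Hsp70 and Hsp110 genes had one, Grp170 at 1.03 ± 0.130 and Hsp110 at 0.784 ± 0.207, and of the 2 other Hsp90 genes Gp93, the Hsp90 of the endoplasmic reticulum, at 0.795 ± 0.446 (SD, n = 3 each). Hsp70Bbb, a further copy in the Hsp70Bb cluster, had none. Within 500 bp of its first TSS 5.25% of the 50-base words were unique.

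Proteins that work with Hsp70 and Hsp90 included DnaJ-1, the gene with the highest start summit of the chaperone genes examined. Of 7 J-domain proteins, which stimulate Hsp70's ATP cycle, 5 had one. DnaJ-1, which is heat-inducible, ranked 238 with relative signals of 10.1, 7.32 and 9.56 in replicates 1 to 3, mrj averaged 1.14 ± 0.349 (SD, n = 3), and Droj2 had no match in replicate 3. Of 14 other cochaperones 9 had one, with Dpit47, an Hsp90 partner, at 3.86 ± 0.791, stv, a BAG-domain partner of Hsp70, at 1.31 ± 0.0142 and PpD3 at 1.21 ± 0.215 (SD, n = 3 each). DnaJ-1 stood above every start summit of the members in all 3 replicates, and Dpit47 above those other than Hsp83 and Hsc70-5 in all 3. These summits lay farther out, 572 bp from a TSS at DnaJ-1 and 934 bp at Dpit47, against 66 to 483 bp at the members. Starts of other genes near the summits of the other chaperone genes were not examined.

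Chaperonins, the barrel-shaped folding machines, had a start summit at 7 of 11 genes, with CCT8 at 0.933 ± 0.241 and CG11267 at 0.864 ± 0.169 (SD, n = 3 each) and CCT3 unmatched in replicate 3. Small heat shock proteins had one at 5 of 6. These 5 all lie on arm 3L, and they were counted as genes and not as separate observations. Hsp27 led them at rank 526 with 6.81, 3.61 and 5.99 in replicates 1 to 3. Hsp23 had 1.42, 0.449 and 0.949, and Hsp26 had 0.189 in replicate 2 and 1.48 in replicate 3 with no match in replicate 1. Over all groups, replicate 2 was the lowest at 11 of the 25 chaperone genes outside the members that had a start value in all 3 replicates, replicate 1 at 10 and replicate 3 at 4.

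**Figure D4:**
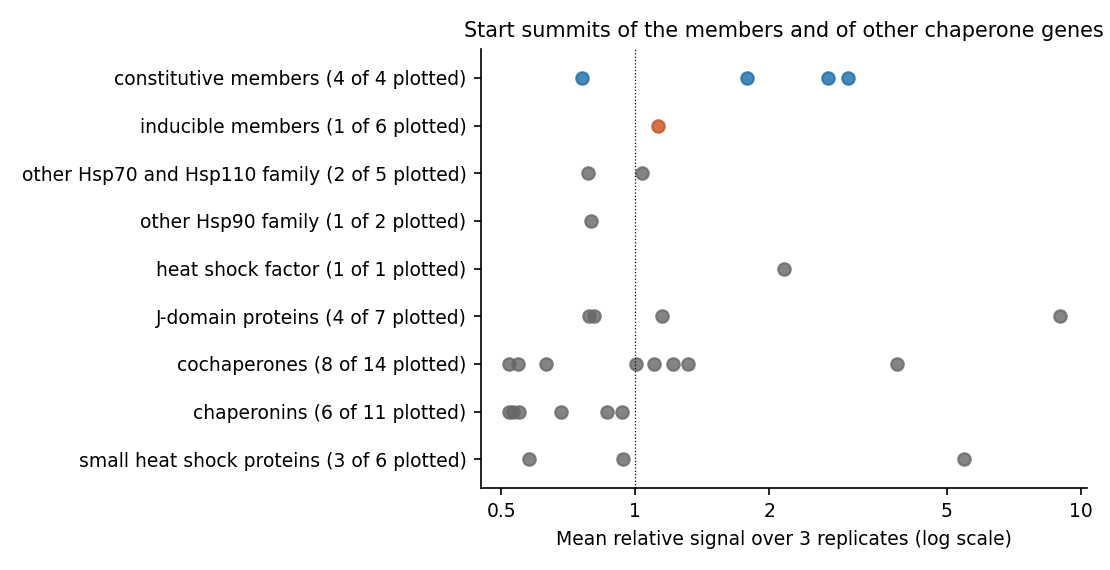
Mean relative signal over 3 replicates (log scale) of the strongest start summit of each gene, for constitutive members, inducible members and 7 groups of other chaperone genes; genes with no summit or not matched in all 3 replicates have no point. The 4 constitutive members lie between 0.760 and 3.00, the 1 inducible point is Hsp68 at 1.13, and DnaJ-1 and Hsp27 lie farthest right.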

How the data were processed

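The deposited lists are peaks of Rel-GFP ChIP-seq in 3 replicates. Peak calling was done by the authors on build dm6 against a control library, once for each replicate and once for the pooled replicates, and the optimal list was derived from these, per the file headers. Neither aligner nor caller nor threshold is given in the sources used here. Signal, as deposited by the authors, has a scale set by the caller, so peaks were ranked within a list. The deposited −log10 q-value has 1 value in the optimal list and was not used. Read depth is unknown.

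Summits (1-based) were set against the Ensembl annotation and the RefSeq release 6 sequence with Python 3.11.15, NumPy 2.4.6 and SciPy 1.17.1. Summits within 100 bp counted as matched. Uniqueness covered words of 36, 50 and 100 bases on both strands, and identity used global alignment in Biopython. The functions were tested on simulated data. Members, gene lists and motifs were chosen with earlier results of these data known. All 10 members, starts of other genes within 1000 bp of a member summit, up to 3 genes per chaperone group by signal and the 2 genes most like each member are named. Nothing states whether the replicates are separate cultures beyond the word biological, so the SD is the spread between these 3 samples. Alternatives covered distances, lists, scalings, word lengths, motif windows and leaving out each replicate.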

Additional observations from a re-analysis of the deposited data

How the results depend on the processing

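Across 19 results and 88 alternatives, 77 values stayed within 1.5 times the reported count or 1 SD of the reported mean and 11 moved. Counts and mean signals cannot change sign, and the difference of constitutive minus inducible did not turn negative. With summits counted within 10000 bp of the gene, or with the pooled list, 8 members in place of 5 had a summit. Inducible members with one were then 4 in place of 1, and the difference of constitutive minus inducible counts was 0 in place of 3. The classes differ in size, so that 0 stood for 4 of 4 constitutive against 4 of 6 inducible members. Counting Hsp83 as inducible, with the optimal list within 5000 bp, made the difference of counts 1 and also changed the class sizes. Matching within 50 bp left 10 member summits matched in all 3 replicates in place of 17, and gave no start value for Hsc70-5, Hsp68 and Hsc70-4. Searched within 200 bp of the summit rather than 100 bp, the heat shock element matched 2 of 19 member summits in place of 0, against 0.531% of all optimal summits, and GAGAG 7 in place of 4, against 48.3%. Allowing 1 mismatch, a form added after the data had been seen, gave 4 summits with a heat shock element. Leaving out each replicate in turn, with a match among the top peaks of both others required, left 5 members with a summit, although the optimal list itself rests on all 3 replicates. Member summits matched in the other replicates numbered 17 to 18, a count that cannot fall below 17 by construction. The mean at the Hsp83 start then ran from 2.32 to 3.98. Leaving out 1 of 3 replicates cannot shift a mean by 1 SD. The relative signals without a replicate were therefore bound to be counted among the 77. The order of Hsp83 over Hsc70-5 turned round without replicate 1, without replicate 3, on the log2 scale and by rank percentile, leaving 3 of 4 neighbours in the same order. These alternatives are counted among the 77, because 3 of 4 lies within the limit of 1.5 times, although the order of that pair reversed. No paired analysis was possible because all 3 samples belong to 1 group, so no groups share replicate numbers. Start summits of different genes were compared within replicates. Whether the unmatched positions hold reads cannot be seen from peak lists, whose depth is unknown.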
